A study of Mus musculus with 26 samples.

Results

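W7 ganglion cells are one of 6 ganglion cell populations sorted from mouse retina at postnatal day 6, and they are described here against the other 5, named BD, Cdh3, Isl2, J and W3. The comparison holds 12 of the 26 arrays of the series: 2 of W7 and 10 of the others, with 2 litters for each subtype. The other 14 arrays hold 7 amacrine and bipolar subtypes, which serve here to show how widely a W7 gene was found. Cells were freed from the retina with papain and sorted, and their RNA was amplified in 2 rounds and hybridised to single-colour Affymetrix arrays. W7, BD, J and W3 cells carried YFP, Cdh3 cells carried GFP from a Cdh3 BAC, and Isl2 cells carried beta-galactosidase, and all 6 sorts also took cells positive for Thy1, a surface protein of ganglion cells. The mice were C57BL/6, except that the labels give the Cdh3 mice as crosses of Swiss Webster. The promoter that drives the reporter in the W7 mice, and whether a cell could fall into more than 1 of these sorts, were not stated in the labels used here. Strain cannot be told apart from subtype for Cdh3.

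Ganglion cells are the output neurons of the retina, and their axons form the optic nerve. They fall into many types that differ in shape, in the features of the image to which they respond and in the genes that they express. Transcription factors, ion channels, transmitter receptors and adhesion molecules are commonly used to tell these types apart.

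Values are log2(intensity + 16) after quantile normalization of the 26 arrays, where the floor is 4.09 and the median over all values is 6.14. Before normalization, the array medians of W7 were 62.96 and 66.65, within the 61.52 to 74.75 of the other ganglion cell arrays. The 16 measured pan-ganglion cell genes had mean levels of 10.38 and 10.48 in the W7 arrays and of 9.99 to 10.58 in the other ganglion cells, above the 5.77 to 8.02 of amacrine and bipolar cells. None of the 15 tested members passed the test between W7 and the others. In these bulk samples fewer cells of a type and less RNA per cell cannot be told apart. After the mean of each gene over the 12 arrays was removed, the 2 W7 arrays correlated with r = 0.37 across genes, and the 2 BD arrays, which stood apart from each other, with r = -0.22; genes are not independent replicates.

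Among genes called higher with both W7 arrays above all 10 others, the highest were Crh, Tbr1, Coch, Ctxn3, Cemip and Esrrg, in that order. The 16 highest and 12 lowest genes named below all met this condition or its reverse, so their lack of overlap is no separate result. Of 13951 genes tested, 95 were higher in W7 than in the mean of the other ganglion cells (0.681%) and 96 were lower (0.688%). These calls required a gap of 1 log2 unit or more together with an adjusted p below 0.05, from limma with Benjamini-Hochberg adjustment. The median difference over all genes tested was -0.02. List members below were chosen with earlier results of these data known, so counts within lists are descriptions beside these shares. Both W7 arrays lay above all 10 others for 74 of the 95 higher genes and below all 10 for 59 of the 96 lower genes. Over all genes tested, 2.92% lay above in this way and 2.82% below. The W7 mean was the highest of the 6 ganglion cell means for 86 of the 95, and for 2425 of all 13951 genes tested. A call already requires W7 to lie above the mean of the others, so the 86 are no separate result. The W7 mean was at least 1 log2 unit over every one of the other 5 for 36 of the 95. When amacrine and bipolar cells were counted too, it was the highest of 13 means for 49 of the 95 and the lowest of 13 for 13 of the 96.

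The spread in this test is that between litters of a subtype, so the calls hold for these 5 other subtypes and not for ganglion cells at large. With the 6 subtype means as units, limma called 0 genes higher and 0 lower, with 846 genes at an unadjusted p under 0.05. Without the second W7 array 34 genes were higher and 31 lower, and without the first 63 were higher and 73 lower. Many genes have more than 1 probe set, and the values are those of the brightest. Of the 66 called genes named here, 41 were also tested on their next brightest probe set, and 30 of these lost the call there. With the median over probe sets, 21 of 62 lost it. These losses are given beside each gene. Genes whose other probe sets were too dim to enter the test are not among the 41.

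**Figure D1:**
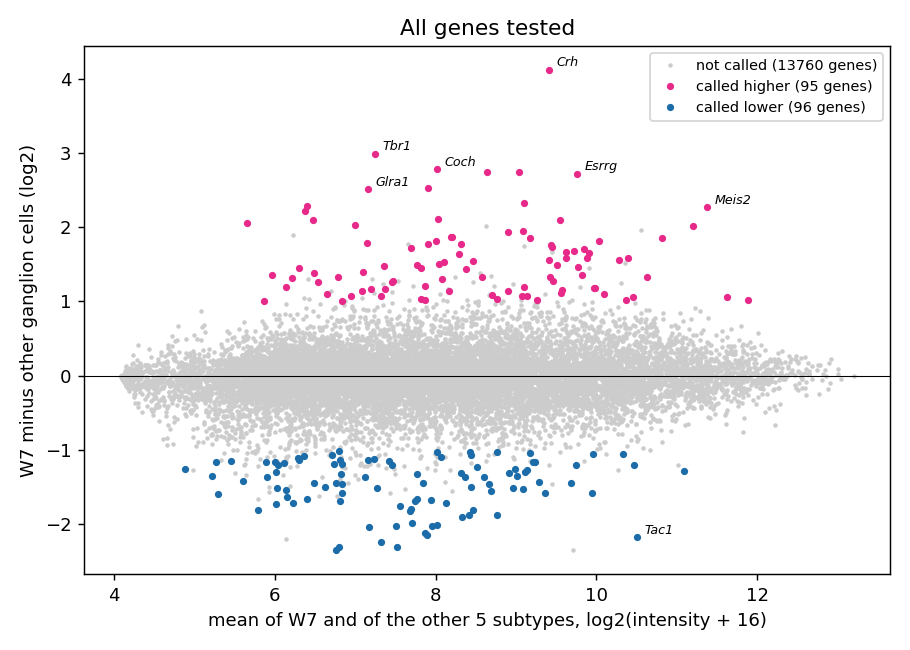
Difference between W7 and the other ganglion cells (log2, vertical axis) against the mean level of both sides (log2(intensity + 16), horizontal axis), 1 point for each of 13951 genes tested. The 95 genes called higher are pink and the 96 called lower are blue, and Crh lies highest, at 4.12.

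The 4 genes that stand as markers of W7 are Crh, Tbr1, Esrrg and Nefh, and they were chosen with earlier results of these data known, so that their calls are not independent evidence. Crh encodes corticotropin-releasing hormone, a neuropeptide of the stress response. Its level was 11.33 and 11.60 in the W7 arrays, and the other 10 ganglion cell arrays had a lowest level of 4.53, a median of 7.33 and a highest of 9.68. The W7 arrays did not overlap the others, but the others were spread over several levels, with Isl2 and W3 nearest to W7 and Cdh3 close to the floor. W7 was higher by 4.12 ± 0.40 (SE), a 17.4-fold difference on this scale, with an adjusted p of 1.1e-05 in limma. Against W3 alone, the nearest subtype with a mean of 9.59, the difference was 1.87 and the largest adjusted p over the 5 single subtypes was 0.10. The amacrine sort named PaxCre had a mean of 10.42, so Crh was not restricted to ganglion cells.

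Tbr1, a T-box transcription factor, was at 8.80 and 8.69 in W7, against a lowest of 4.61, a median of 5.47 and a highest of 7.65 in the others. The highest of the others was a J array, and no array reached W7. The difference was 2.99 ± 0.27 (adjusted p = 7.3e-06, limma), and against J alone it was 1.61 with an adjusted p of 0.013. No amacrine or bipolar mean was above 5.48. Of the 7 T-box genes tested, Tbr1 was the only one called, and Eomes, at 7.29 and 6.16 in W7, overlapped the 5.96 to 11.38 of the others.

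Esrrg, an orphan nuclear receptor of the estrogen-related family that acts on genes of oxidative metabolism, was at 11.04 and 11.20 in W7. The other ganglion cells had a lowest level of 7.21, a median of 8.39 and a highest of 9.51, and did not overlap W7. The difference was 2.72 ± 0.35 (adjusted p = 0.00020, limma), and against the nearest subtype, Cdh3, it was 1.98. AII amacrine cells were higher still, with a mean of 12.21. This value rests on 1 of 3 probe sets: the other 2 differed by 0.39 and -0.20 and lay under the overall median in both groups, and the median over the 3 gave -0.19. Among 26 nuclear receptors tested, Esrrg was the only one called, while Rxrg differed by 0.77 (adjusted p = 0.0051, limma) and stayed under 1 log2 unit.

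Nefh, the heavy neurofilament subunit of large axons, was at 10.38 and 10.53 in W7 and between 7.96 and 9.32 in the others, with a median of 8.91. The difference was 1.66 ± 0.25 (adjusted p = 0.00086, limma), and no other array reached W7. Without the second W7 array it was 1.59, with an adjusted p of 0.055. Nefh belongs to a list of 6 measured genes of alpha ganglion cells, a class with large somata and thick axons, and it was the only member called. Tpbg, a leucine-rich repeat membrane protein, was at 10.08 and 9.20 in W7 against 5.69 to 9.28 and did not pass (2.02 ± 0.56, adjusted p = 0.072, limma). Kcng4, a potassium channel subunit used as an alpha cell marker, was at 5.03 and 5.02 in W7, under the overall median, and at 4.71 to 5.42 in the others. The list's median difference was 0.01.

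**Figure D2:**
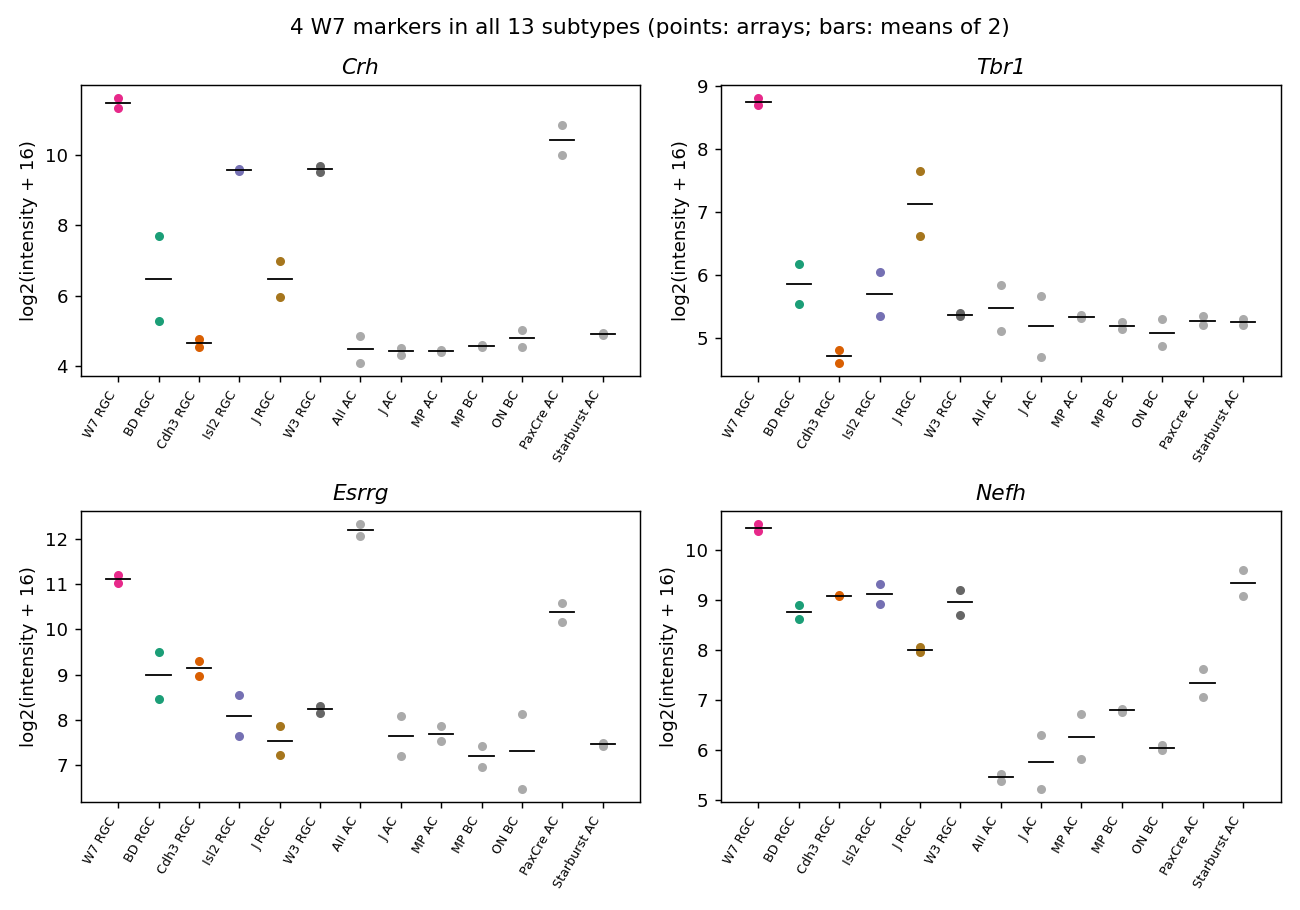
Level of Crh, Tbr1, Esrrg and Nefh (log2(intensity + 16), vertical axes) in the 13 subtypes; points are arrays and bars are means of 2 arrays. W7 is highest of all subtypes for Crh, Tbr1 and Nefh, and AII amacrine cells, with a mean of 12.21, are above W7 for Esrrg.

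Next among the 16 highest genes, cochlin, the product of Coch and a matrix protein known from the inner ear, was at 8.84 and 9.97 in W7 against 5.68 to 7.89 in the others, with a median of 6.65. Cemip, which takes part in the breakdown of hyaluronan, was at 10.41 and 10.39 against 5.96 to 8.86, with a median of 7.76. Its mean in the amacrine sort named PaxCre was 10.19, close to the 10.40 of W7. Hapln1, a link protein that binds hyaluronan to proteoglycans, was at 7.36 and 7.72 against 4.88 to 5.75, with a median of 5.25. None of these 3 overlapped. They differed by 2.78 ± 0.30 for Coch, 2.74 ± 0.17 for Cemip and 2.28 ± 0.33 for Hapln1, and the largest adjusted p over the 5 single subtypes was 0.021, for Hapln1 (limma). Cemip rests on 1 of 3 probe sets and Hapln1 on 1 of 4, and their other probe sets lay under the overall median in both groups. Those differed by -0.17 and 0.22 for Cemip and by 0.07, 0.73 and 0.52 for Hapln1.

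Also among the 16 highest, Nts, the precursor of neurotensin, was at 9.38 and 8.79 in W7 against 4.73 to 8.40, with a median of 7.75, and differed by 2.11 ± 0.28. Nxph1, a secreted ligand of neurexins, was at 9.18 and 9.16 against 4.84 to 8.25, with a median of 6.62, and differed by 2.52 ± 0.34. Its mean in the bipolar sort named MP was higher, at 9.57 against 9.17 in W7. Mme, the membrane protease neprilysin that cuts neuropeptides, was at 6.97 and 8.09 against 4.83 to 6.28, with a median of 5.44, and differed by 2.10 ± 0.27. The other probe set of Mme differed by 0.14 and lay under the overall median in both groups. These 3 did not overlap, and for Nts and Nxph1 the nearest single subtype could not be separated from W7 (largest adjusted p 0.28 and 0.27, limma). The value of Nxph1 depends on its probe set and was 0.74 in the 12 ganglion cell arrays alone, where another probe set was the brightest (adjusted p = 0.066), and 0.74 also on the next probe set over 26 arrays.

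Neuropeptides went both ways. Of 20 tested in this list, Crh, Nxph1 and Nts were higher and Tac1, the precursor of substance P, was lower. Nxph1, a ligand of neurexins, is in the list but is not itself a neuropeptide. The list's median was -0.01, against -0.02 over all genes, of which 0.681% were higher and 0.688% lower. Tac1 was at 9.91 and 8.93 in W7, against a lowest of 10.98, a median of 11.49 and a highest of 12.42, with no overlap. It fell by 2.18 on the log2 scale (SE 0.29, adjusted p = 0.00022, limma), and the largest adjusted p over the 5 single subtypes was 0.016. Its other probe set, under the overall median in both groups, differed by -0.03. The other parts of the Crh system were not called: Crhbp, which binds the peptide, was at 8.34 and 8.28 against 8.11 to 10.28 (-0.97 ± 0.15, adjusted p = 0.0013, limma), just short of 1 log2 unit. The receptor Crhr1 was at 7.00 and 6.95 against 6.72 to 7.88.

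Regulators of growth and metabolism were also among the highest. Ppargc1a, a coactivator of mitochondrial genes, was at 10.68 and 10.52 in W7 against 7.89 to 9.01, with a median of 8.55, and differed by 2.10 ± 0.21. Its largest adjusted p over the 5 single subtypes was 0.0016. Of 31 mitochondrial energy genes tested, Ppargc1a and Idh3a were higher and none was lower, with a median of 0.19. All genes tested gave 0.681% higher and 0.688% lower. Idh3a, a subunit of isocitrate dehydrogenase, was at 10.66 and 11.30 and overlapped the others (9.50 to 10.93); it differed by 1.05 ± 0.26 (adjusted p = 0.038). Its call was lost without either W7 array (adjusted p = 0.066 without the first and 0.66, at 0.73, without the second). It was also lost without the first BD array (0.93 log2 units), the first Cdh3 array (adjusted p = 0.060), either Isl2 array (0.057 and 0.066), the first J array (0.061) or either W3 array (0.053 and 0.062). Its call was further lost in the 12 ganglion cell arrays alone (adjusted p = 0.15), with a pseudocount of 4 (0.052), with the median over probe sets (0.64 log2 units) and on the next probe set (0.39).

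Igfbp2, which binds insulin-like growth factors, was at 7.28 and 7.69 against 4.93 to 5.66, with a median of 5.30. It did not overlap, and its difference of 2.21 ± 0.16 held against each single subtype, with a largest adjusted p of 4.8e-05 in limma. A list of growth factors, their receptors and related proteins held 37 tested genes, not all of them ligands or receptors. Igfbp2, Igf1 and Igfbp5 were higher and Fgf13 was lower, beside 0.681% higher and 0.688% lower over all genes tested. Igf1, the growth factor itself, was at 12.12 and 12.30 in W7, and overlapped the 7.36 to 12.65 of the others because Cdh3 cells were at 12.55 on average. Its difference was 2.01 ± 0.30 (adjusted p = 0.00086), and without the second W7 array it was 1.92 (adjusted p = 0.056). Igfbp5 differed by 1.71 ± 0.39 and lost its call without the first (adjusted p = 0.21) or the second W7 array (adjusted p = 0.24), with J cells left out (1.30, adjusted p = 0.13) and with a pseudocount of 4 (adjusted p = 0.070). On its other probe set, at 7.86 in W7 and 7.61 in the others and thus above the overall median, Igfbp5 differed by 0.25. The median over its probe sets gave 0.98. Fgf13, at 9.92 and 9.69 against 10.32 to 11.60, fell by 1.05 on the log2 scale, and its next probe set differed by 0.17; without the first W7 array the adjusted p was 0.097 and without the second 0.37. Fgf13 also lost its call with the median over probe sets (-0.44), with the arrays shifted to the same median (-0.97) and without the Cdh3 subtype (-0.88).

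The remaining leaders have varied roles. Mreg, or melanoregulin, which acts in the transport of organelles, was at 10.26 and 10.27 in W7 against 7.33 to 8.23, with a median of 8.01. No array overlapped, and the difference of 2.32 ± 0.26 had a largest adjusted p of 0.0013 over the single subtypes. Meis2, a homeobox factor of the TALE class, was at 12.60 and 12.43 against 6.16 to 11.78, with a median of 10.66, and differed by 2.27 ± 0.35. Isl2 cells came near it, with a mean of 11.66 and a largest adjusted p of 0.40, and the next probe set of Meis2 differed by 1.66 (adjusted p = 0.072). PaxCre amacrine cells were higher for Meis2, with a mean of 12.96 against 12.51 in W7. Ctxn3, a small membrane protein of the cortexin family, was at 10.14 and 9.88 against 6.09 to 9.87, with a median of 6.50, and differed by 2.74 ± 0.31. It separates W7 from only 4 of the 5 subtypes, since Cdh3 cells had a mean of 9.75 and differed from W7 by 0.25 (adjusted p = 0.83, limma).

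Fgd6, an exchange factor for small GTPases, was at 6.52 and 6.84 against 4.09 to 5.37 and differed by 2.05 ± 0.16. Which of its probe sets was brightest changed with the normalization, and with the columns as deposited the difference was 0.18; without the first W7 array it was 0.40 and without the second 0.01. With the smaller pseudocount of 4 it was 0.32, with the arrays shifted to the same median 0.27, and on the next probe set 0.21. Mean levels of Fgd6 were higher in PaxCre amacrine cells (8.88) and MP bipolar cells (7.20) than in W7 (6.68).

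**Figure D3:**
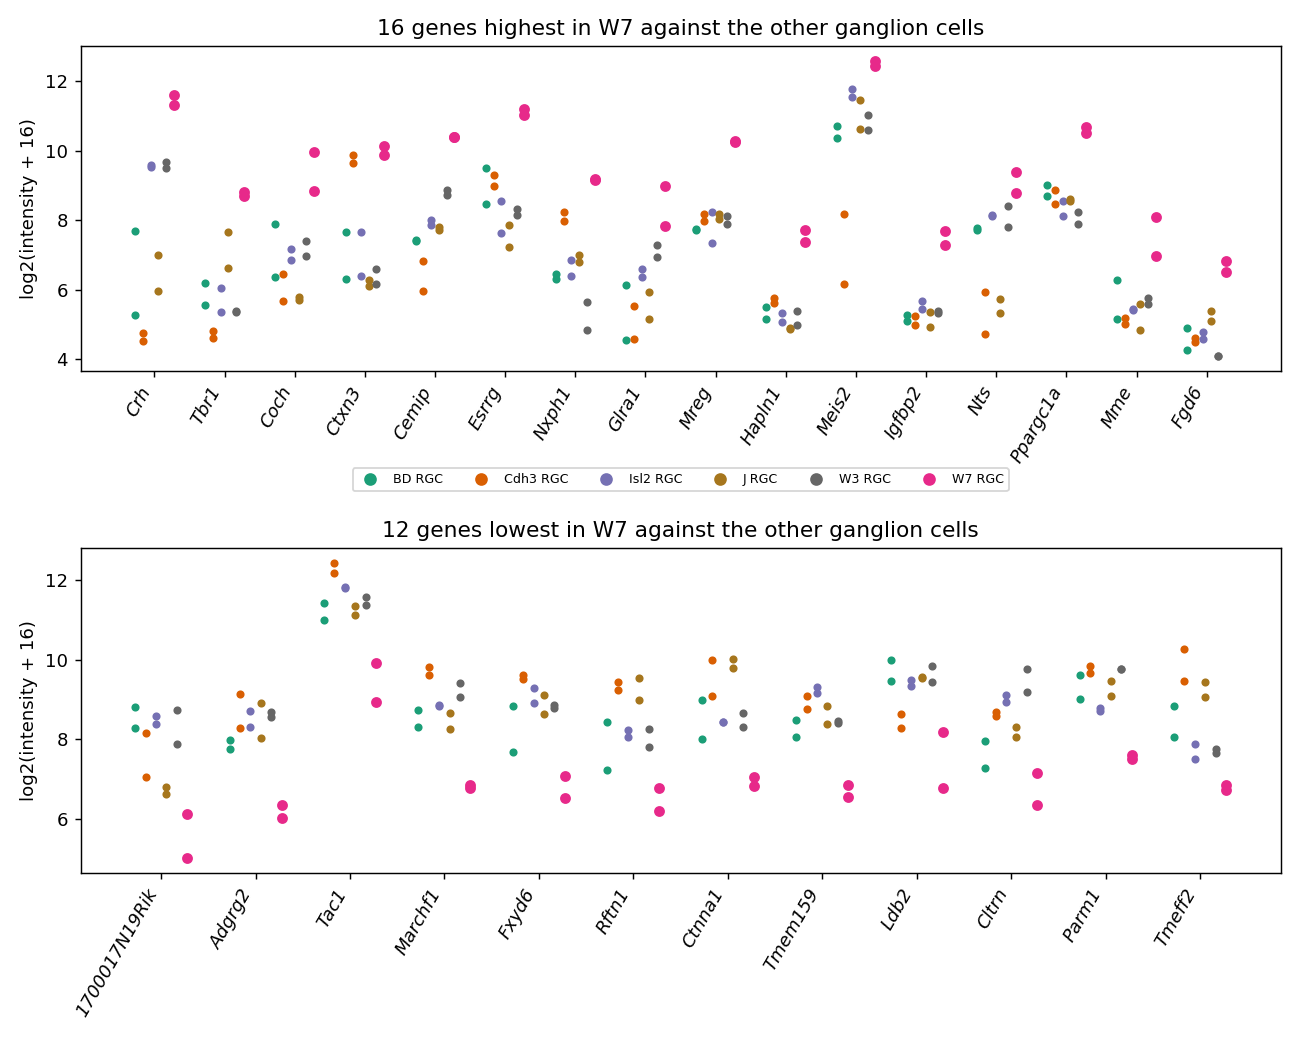
Levels (log2(intensity + 16)) of the 16 genes highest and the 12 genes lowest in W7, 1 point for each of the 12 ganglion cell arrays, coloured by subtype. By the selection rule, the W7 points (pink) lie above all others in the upper panel and below all others in the lower one. Ctxn3 in Cdh3 cells, with a mean of 9.75, comes closest.

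Receptors for GABA, glycine and acetylcholine (nicotinic) held 4 higher genes and no lower one among 22 tested members. Over all genes tested, 0.681% were higher and 0.688% lower. Glra1, the glycine receptor alpha subunit, was at 9.00 and 7.84 in W7 against 4.56 to 7.28, with a median of 6.03, and differed by 2.51 ± 0.37 with no overlap. Glra1 was higher in the bipolar sort named MP, with a mean of 11.10 against 8.42 in W7. The Glra1 difference rests on 1 of 2 probe sets, and the other differed by 0.35 and lay under the overall median in both groups. Gabra2, an alpha subunit of the GABA-A receptor, was at 10.68 and 11.19 against 7.75 to 10.25 and differed by 1.81 ± 0.28. Gabrg1, a gamma subunit, differed by 1.33 ± 0.25 but overlapped J cells, whose mean was 10.19. The nicotinic subunit Chrna6, an excitatory receptor, differed by 1.11 ± 0.24 and overlapped too. The list's median was 0.09. The call of Chrna6 was lost in the 12 ganglion cell arrays alone (adjusted p = 0.094), without the Cdh3 subtype (0.90, adjusted p = 0.073), with the median over probe sets (0.59) and on its other probe set, which differed by 0.07 at levels of 7.17 and 7.09, above the overall median. Calls were also lost with single W7 arrays left out: without the first, the adjusted p was 0.064 for Glra1, 0.057 for Gabrg1 and 0.056 for Chrna6, and without the second it was 0.10 for Gabra2, 0.22 for Gabrg1 and 0.49 for Chrna6.

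Among receptors for amines and peptides, Drd1, a dopamine receptor, and Htr1b, a serotonin receptor, were the 2 higher of 21 tested. Beside this, 0.681% of all genes tested were higher. Drd1 was at 8.54 and 8.49 against 5.84 to 7.86, and Htr1b at 10.36 and 10.79 against 8.74 to 10.29, and neither overlapped. They differed by 1.49 ± 0.29 and 1.19 ± 0.26. Drd1 was higher in the bipolar sort named MP, with a mean of 11.14 against 8.51 in W7. Neither call held on the second probe set, where Drd1 differed by 0.77 and Htr1b, at 6.59 against 6.52 and above the overall median, by 0.07. Htr1b lost its call also with the median over probe sets (0.63) and with a pseudocount of 4 (adjusted p = 0.083). Without the first W7 array the adjusted p was 0.10 for Drd1 and 0.076 for Htr1b, and without the second 0.15 and 0.46. Of 13 ionotropic glutamate receptors, Grik3, a kainate receptor subunit, was called, and lower: it was at 7.57 and 7.19 in W7 and fell by 1.90 on the log2 scale, but Cdh3 cells, with a mean of 7.34, were as low. Without the second W7 array Grik3 had an adjusted p of 0.061, and with the median over probe sets it was at -0.98.

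Channels of excitability moved little one by one. Kcna1, a potassium channel of axons, was the 1 call among 29 voltage-gated potassium channel genes: it was at 10.33 and 10.29 against 7.28 to 9.20, with a median of 8.56, and differed by 1.73 ± 0.26 (adjusted p = 0.00086, limma) without overlap. Of 7 voltage-gated sodium channel genes none was called, although both W7 arrays lay above all others for Scn8a, Scn2a and Scn1a. The share of all genes tested that lay above in this way was 2.92%. Scn8a was at 10.32 and 10.88 against 9.08 to 10.19 (0.83 ± 0.31, adjusted p = 0.22), and Scn1a at 11.20 and 11.25 against 10.29 to 10.90 (0.57 ± 0.18, adjusted p = 0.11). The sodium channel median was 0.57. Of 19 calcium channel genes none was called. Cplx1, a complexin that acts in vesicle release, was the 1 call among 31 synaptic vesicle genes, at 12.38 and 12.40 against 10.75 to 11.76, with a difference of 1.02 ± 0.22; without the first W7 array its adjusted p was 0.14 and without the second 0.25, and it fell short of 1 log2 unit without the second BD array (0.95), without the second J array (0.97), without both J arrays (0.91) or without the Cdh3 subtype (0.98).

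Adhesion molecules changed in both directions. Among 8 delta protocadherins, which mediate contact between like cells, Pcdh7 and Pcdh19 were higher and Pcdh10 and Pcdh8 were lower. The shares over all genes tested were 0.681% higher and 0.688% lower. Pcdh8 was at 10.19 and 10.69 in W7 against 11.44 to 11.98, without overlap, and fell by 1.29 on the log2 scale. The other 3 overlapped: Pcdh19 in W7 (11.30 and 11.28) was matched by Cdh3 cells, and Pcdh7 (10.65 and 10.82) by W3 cells. Pcdh10, at 8.09 and 8.43, was as low in Cdh3 cells. Without the first W7 array the adjusted p was 0.092 for Pcdh10 and 0.20 for Pcdh8, and without the second 0.072 for Pcdh7 and 0.070 for Pcdh8. None of the 4 calls held on the next probe set, where the differences were 0.20 for Pcdh7, 1.27 for Pcdh19 (adjusted p = 0.12), -1.18 for Pcdh10 (adjusted p = 0.091) and -0.99 for Pcdh8. With the median over probe sets Pcdh7 was at 0.30, Pcdh10 at -0.26 and Pcdh19 at 1.27 (adjusted p = 0.071), and these 3 were not called.

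Of 13 classical cadherins, Cdh11 and Cdh10 were higher and Cdh1 lower, beside 0.681% higher and 0.688% lower over all genes tested. Cdh11 was at 10.12 and 10.40 against 8.02 to 9.26 and differed by 1.49 ± 0.30, and Cdh10 was at 10.31 and 10.70 against 8.16 to 10.18 and differed by 1.47 ± 0.28. Neither overlapped, but the next probe set of Cdh10, at 7.21 against 6.90 and above the overall median, differed by 0.31 and was not called. Cdh1 fell by 1.41 on the log2 scale, and the difference was -0.58 (adjusted p = 0.39) without the Cdh3 subtype, in which it was at up to 9.95; Cdh1 also lost its call in the 12 ganglion cell arrays alone (adjusted p = 0.11) and with a pseudocount of 64 (-0.93). Without the first W7 array the adjusted p was 0.070 for Cdh11 and 0.056 for Cdh1, and without the second 0.25 for Cdh11, 0.25 for Cdh10 and 0.36 for Cdh1.

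Among 33 immunoglobulin adhesion molecules, 4 were lower (Dscaml1, Lsamp, Jam2 and Igsf9) and Mdga2 was higher. The shares over all genes tested were 0.688% lower and 0.681% higher. Lsamp, a GPI-anchored adhesion protein of the limbic system, was at 9.38 and 8.94 in W7 against 10.37 to 11.23, with a median of 10.63, and did not overlap. It fell by 1.58 on the log2 scale (SE 0.18, adjusted p = 4.6e-05, limma), with a largest adjusted p of 0.0034 over the single subtypes. Dscaml1 fell by 2.01, but Cdh3 cells, with a mean of 6.51, were lower than W7, at 7.41 and 6.62. Its call was lost without the first W7 array (adjusted p = 0.10), the second W7 array (0.57), the first Isl2 array (0.058), the second Isl2 array (0.052) or the second W3 array (0.056), in the 12 ganglion cell arrays alone (0.20), with a pseudocount of 4 (0.085) and on the next probe set (-0.20 log2 units). Jam2 fell by 1.37, its next probe set differed by 0.082, the median over probe sets was -0.59, its highest level was in a J array, and it was at -0.86 (adjusted p = 0.068) with J cells left out and at an adjusted p of 0.10 without the first W7 array. Igsf9 (-1.10) and Mdga2 (1.35) lost their calls without the first W7 array (adjusted p = 0.052 and 0.064), and Mdga2 also without the second (0.44), in the 12 ganglion cell arrays alone (0.077) and without the Cdh3 subtype (0.10). Igsf9 fell short of 1 log2 unit with the median over probe sets (-0.56), with a pseudocount of 64 (-0.69) and without the Cdh3 subtype (-0.96).

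Among 23 tested leucine-rich repeat adhesion molecules and related surface proteins, Ntng1, Slitrk6 and Slitrk1 were higher and Flrt2 was lower. Ntng1 is in the list but is not itself a leucine-rich repeat protein. All genes tested gave 0.681% higher and 0.688% lower. Ntng1, a netrin-related protein that is anchored to the axon surface, was at 11.64 and 11.85 against 8.71 to 10.50, with a median of 10.03, and did not overlap. It differed by 1.86 ± 0.24 (adjusted p = 0.00022, limma), and against each single subtype the largest adjusted p was 0.033; the call was lost on the next probe set (1.53, adjusted p = 0.21) and with the median over probe sets of Ntng1 (1.69, adjusted p = 0.061). Slitrk6 differed by 1.64 ± 0.34 and Slitrk1 by 1.15 ± 0.22, both without overlap. Without the second W7 array the adjusted p was 0.24 for Slitrk6, 0.30 for Slitrk1 and 0.22 for Flrt2, and without the first it was 0.10 for Slitrk6. Slitrk6 also lost its call with a pseudocount of 4 (adjusted p = 0.10) and Slitrk1 in the 12 ganglion cell arrays alone (0.057), while Flrt2 was at -0.84 both on the next probe set and with the median over probe sets. Cbln2, a secreted organiser of synapses, was higher by 1.55 ± 0.32 and had an adjusted p of 0.061 and 0.37 without the first and the second W7 array.

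Axon guidance genes gave few calls. Plxna2, a semaphorin receptor, was at 8.50 and 8.58 in W7 against 5.17 to 8.30 and differed by 1.44 ± 0.14 (adjusted p = 1.3e-05, limma), although W3 cells, with a mean of 8.28, differed from W7 by only 0.27. The call of Plxna2 was lost in the 12 ganglion cell arrays alone (1.01, adjusted p = 0.11) and on the next probe set (1.02, adjusted p = 0.054). Nrp2, a coreceptor for semaphorins, fell by 1.16 on the log2 scale and overlapped BD cells; without the second W7 array its adjusted p was 0.45, and Nrp2 was at -0.53 on the next probe set and at -0.38 with the median over probe sets. Plxna2 and Nrp2 were 2 of 27 semaphorin, plexin and neuropilin genes, beside 0.681% higher and 0.688% lower over all genes tested. Efnb2 was called among 17 Eph and ephrin genes (1.12 ± 0.27, adjusted p = 0.037), but overlapped BD cells and had an adjusted p of 0.16 and 0.44 without the first and the second W7 array. Its call was also lost without the first BD array (0.98 log2 units), the first Cdh3 array (adjusted p = 0.054), the second Isl2 array (0.067), the second J array (0.052), or either W3 array (0.055 and 0.057). Efnb2 was not called either in the 12 ganglion cell arrays alone (adjusted p = 0.14), with a pseudocount of 4 (0.051), without the Cdh3 subtype (0.072), with J cells left out (0.099) or with the median over probe sets (0.68 log2 units). Epha4, at 10.39 and 10.88 against 8.29 to 9.80, did not pass, with an adjusted p of 0.051. None of 13 Slit, Robo and netrin receptor genes was called.

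**Figure D4:**
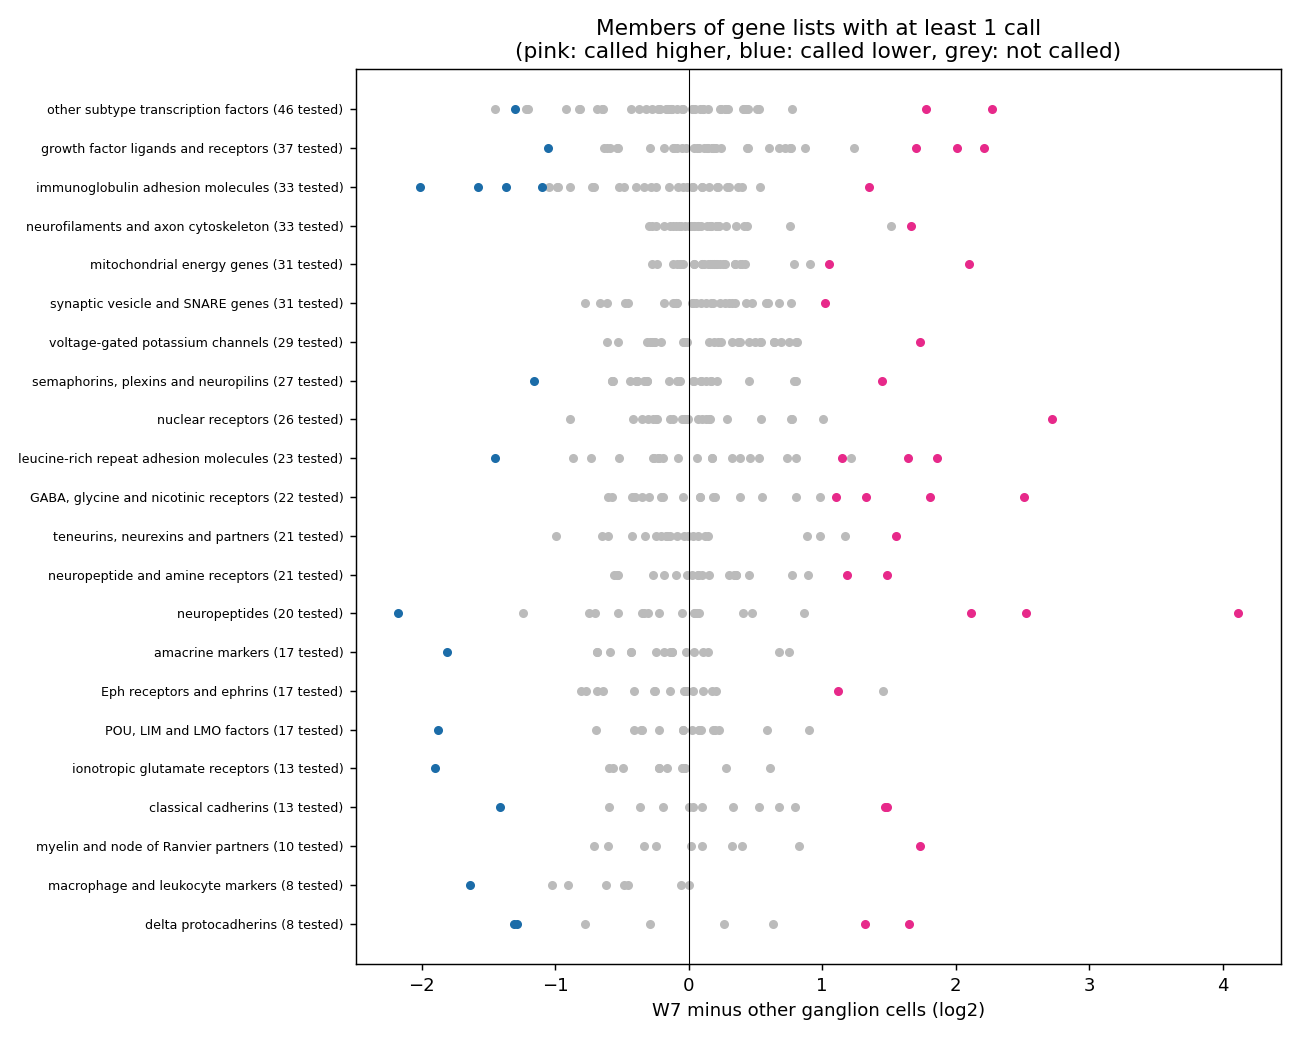
Difference between W7 and the other ganglion cells (log2) for the tested members of gene lists that hold at least 1 call and 8 tested members; each point is a gene, pink where called higher, blue where called lower and grey where not called. The neuropeptides span the widest range, from Tac1 at -2.18 to Crh at 4.12.

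Transcription factors used to tell ganglion cell types apart gave 3 calls of 46: Meis2 and Tfap2d higher and Foxp2 lower. All genes tested gave 0.681% higher and 0.688% lower. Tfap2d, an AP-2 factor, was at 8.90 and 8.68 in W7 and differed by 1.77 ± 0.26, but BD cells were higher, with a mean of 9.53. Foxp2, a forkhead factor of other ganglion cell types, was at 8.53 and 8.38 in W7 and between 6.44 and 11.44 in the others. It fell by 1.30 on the log2 scale, was lower still in Cdh3 cells (mean 6.87), and had an adjusted p of 0.13 without the second W7 array. On the next probe set Foxp2 was at -0.80 and with the median over probe sets at -0.77, and it was called in neither. Of the 17 POU, LIM and LMO factors the 1 call was Ldb2, a cofactor that binds LIM domains, at 8.18 and 6.77 against 8.28 to 9.99; Ldb2 was not called on the next probe set (-0.80) or with the median over probe sets (-0.85). Among 6 tested genes of direction-selective cells, Col25a1, a membrane collagen, was lower, at 7.87 and 8.00 against 8.35 to 11.61 (-1.46 ± 0.34, adjusted p = 0.025, limma); without the first W7 array the adjusted p was 0.19 and without the second 0.26. The call of Col25a1 was also lost with a pseudocount of 4 (adjusted p = 0.090), with the median over probe sets (-0.74) and on the second probe set, which differed by -0.01 and lay under the overall median in both groups. None of 5 tested genes of intrinsically photosensitive cells was called.

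Among called genes that did not overlap, the 12 lowest were led by 1700017N19Rik, a gene without a settled name. Its level was 6.14 and 5.03 in W7, against a lowest of 6.63, a median of 8.23 and a highest of 8.81. It fell by 2.35 on the log2 scale, and by 1.79 (adjusted p = 0.12) without the second W7 array. Adgrg2, an adhesion G protein-coupled receptor, was at 6.36 and 6.03 against 7.76 to 9.13, with a median of 8.43. It fell by 2.24 (SE 0.24), with a largest adjusted p of 0.0066 over the single subtypes (limma). The other probe set of Adgrg2, under the overall median in both groups, differed by -0.79. Marchf1, a ubiquitin ligase of membranes, was at 6.86 and 6.78 against 8.27 to 9.82, with a median of 8.85, and fell by 2.14 (SE 0.20, largest adjusted p 0.0013). Neither of these 2 overlapped the others, and the next probe set of Marchf1 was at -1.01 (adjusted p = 0.32).

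Fxyd6, a regulator of the sodium pump, was at 7.08 and 6.55 against 7.69 to 9.61, with a median of 8.90, and fell by 2.11. Rftn1, a protein of lipid rafts, was at 6.22 and 6.78 against 7.23 to 9.54 and fell by 2.03. Ctnna1, or alpha-catenin, which links cadherins to actin, was at 7.07 and 6.83 against 8.02 to 10.02, fell by 2.02, and was the lowest of all 13 subtypes in W7. The lowest of the other arrays was the second BD array for all 3. The remaining 5 of the lowest, Tmem159, Cltrn, Parm1, Tmeff2 and Ldb2, fell by 1.79 to 1.99, each without overlap, and Cltrn, or collectrin, had an adjusted p of 0.099 without the second W7 array. Tmem159 differed by 0.97, in the other direction, on its next probe set, and was at -0.51 with the median over probe sets. Parm1 (-0.44) and Tmeff2 (-0.86) lost their calls on the next probe set, and Ctnna1 (-0.99) with the median over probe sets.

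Markers of other retinal and immune cells varied among the sorts. The mean level of the 12 microglia markers was 7.39 and 8.20 in W7 and 6.08 to 10.35 in the others, with a median of 8.97; all 12 had lower means in W7, and none of the 11 tested was called. Macrophage and leukocyte markers had mean levels of 5.61 and 6.30 in W7 and 5.25 to 7.95 in the others. Of 8 tested, Pf4 was lower (-1.64 ± 0.42, adjusted p = 0.047, limma), and it lost the call without the first (adjusted p = 0.33) or second W7 array (0.20), without the first Cdh3 array (0.071), without the first (0.079) or second Isl2 array (0.058), without the first J array (0.073) and without the first (0.061) or second W3 array (0.074). Pf4 was not called either in the 12 ganglion cell arrays alone (adjusted p = 0.15), with a pseudocount of 4 (0.20), with no filter on dim genes (0.057) or with the arrays shifted to the same median (0.051). The 9 mural cell markers were at 6.92 and 6.96 in W7 and at 5.45 to 8.77 in the others. Rod markers were at 5.92 and 6.01 in W7 and at 5.94 to 6.89 in the others, and none of 10 tested was called.

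Amacrine markers were at 6.35 and 6.60 in W7 and at 6.30 to 7.56 in the others, the highest being a J array. Of 17 tested, Tfap2b, an AP-2 factor of amacrine cells, was lower: it was at 5.04 and 4.73 in W7 against 4.84 to 9.22, fell by 1.81 on the log2 scale, and overlapped W3 cells; without the second W7 array its adjusted p was 0.070, and the next probe set of Tfap2b differed by -0.30. The part of these cells in the genes lower in W7 was not tested. With J cells, which had the highest microglia, amacrine and mural levels, left out of the comparison, 88 genes were higher and 96 lower.

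Promoters of 13 of the 16 highest genes, from 250 bases before to 50 after the start, were in the RefSeq table of GRCm38.p6, 20 promoters in all. The motif TCAAGGTCA of estrogen-related receptors and the T-box site TCACACCT were searched on both strands; neither was in any of the 20, and they were in 0.423% and 1.28% of all 32851 promoters. After that result, 7 further motifs were searched. TGACGTCA, TGACGCAA, AGGTCA and AAGGTCA were in none of the 20 promoters. CGTCA was in promoters of 3 of the 13 genes, against 23% of all genes with a promoter. TATAAA, on the gene's strand, was in those of 2 genes (9.77% of all genes). GTGTGA was in 5 of the 20 promoters (14.5% of all promoters), which belong to 2 genes, Esrrg and Meis2 (16.4% of all genes). With 9 motifs searched, some overlapping others, the last 3 matches were picked out by the search and are a description only.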

How the data were processed

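The authors deposited one table of intensities for single-colour arrays, on a linear scale with a floor of 1; the software and scaling behind these deposited intensity values were not stated in the sources used here. Per the labels, the 2 arrays of a subtype come from different litters. Here log2(intensity + 16) was quantile normalized over 26 arrays. After 64 control probe sets were removed, 45037 remained. Of these, 9160 without a gene symbol and 932 with several were left out. The brightest probe set was taken for each of 18193 genes. Genes entered the test where at least 2 of 26 arrays exceeded the overall median. limma 3.58.1 in R 4.3.3 fitted 13 subtype means (13 residual and 4.59 prior degrees of freedom); tests were two-sided and took W7 minus the equally weighted mean of 5 subtypes. Named genes are the 16 highest and 12 lowest among called genes that did not overlap, the 4 markers and members of 48 lists. The members and lists were chosen with earlier results of these data known, and the 7 further promoter motifs after the 2 planned ones gave no match. Tested on simulated data of 13951 genes, the fit found 38% of changes of 1 log2 unit and 98% of changes of 1.5, 2 or 3, with 2 false calls. Unchanged genes there had a W7 mean equal to that of the others, with independent noise of the fitted spread. Effects of single arrays were not simulated, and a change of 1 log2 unit lies at the threshold for a call. The number of arrays, 2 for W7, limits the precision.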

Additional observations from a re-analysis of the deposited data

Results flagged for a closer look

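Of 42 values checked for a single array far from the other 9 of the 10 other ganglion cell arrays, 2 stood out, and chance alone gives about 1 in 20. Fxyd6 was at 7.685 in the second BD array, where the nearest other array was at 8.627. The mean of the amacrine markers was 7.564 in the first J array, where the nearest other was at 6.823.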

How the results depend on the processing

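Over the 66 called genes named in the text, 1514 of 1747 values under the alternatives kept their direction and their side of the threshold, 229 kept the direction but not the call, and 4 changed direction. For the 28 highest and lowest genes with Nefh, 29 in all, these numbers were 704 of 757, 51 and 2. Of the 66, all lost the call with subtype means as units, 32 of 65 without the second W7 array and 23 of 65 without the first. The counts of 95 higher and 96 lower genes ranged from 34 to 118 and from 31 to 144 when single arrays were left out; without the second W7 array 33 of the higher and 27 of the lower genes were among those called with all arrays, and without the first 46 and 51. With subtype means as units, which leaves 4 residual degrees of freedom, the counts were 0 and 0 in limma, with 846 genes at an unadjusted p under 0.05. With the next brightest probe set, which exists for only 6267 tested genes, they were 52 and 14, and with the median over probe sets 54 genes were lower. With the columns as deposited 84 were higher and 117 lower, so that 41.8% of calls were higher against 49.7%; the median over probe sets gave 62.2% and the next brightest 78.8%. Directions turned for Esrrg with the median over probe sets (-0.19), and with the next brightest probe set for Fgf13 (0.17), Jam2 (0.082), Tmem159 (0.97), Gad2 (1.04) and Htr1d (-1.69, and -1.66 with the median); the cause was not tested. With a replicate block, 101 genes were higher and 107 lower. Over 15 pairs of subtypes the correlation of litter differences ran from -0.19 to 0.37, with a median of 0.08 and over 0.1 in 7. These values do not settle whether the replicate numbers pair the samples, and the main fit did not pair them. Leaving J cells out, chosen after seeing the data, gave 88 and 96.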
